A study of Mus musculus with 8 samples.

Results

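The results concern 31 genes of cholesterol and fatty acid synthesis, chosen by symbol from the 22756 genes of the count files. Of these, 16 belong to the cholesterol arm, 10 to the fatty acid arm and 5 to the regulators that control both arms by the sterol level. Hmgcs1, the synthase that makes HMG-CoA for the mevalonate pathway, had no row in the files or in the gene annotation, so that 30 were measured. A total of 23 had a mean of at least 200 counts over the 8 libraries and entered the tests, 10 in the cholesterol arm, 8 in the fatty acid arm and all 5 regulators. The 7 below that mean were Mvk, Idi1, Lss, Tm7sf2, Hsd17b7, Acaca and Elovl6.

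Cells make cholesterol and fatty acids from the same precursor, cytosolic acetyl-CoA. The cholesterol arm runs through the mevalonate pathway to squalene, lanosterol and cholesterol. The fatty acid arm runs through malonyl-CoA to saturated fatty acids, which are then lengthened, desaturated and joined to CoA. The SREBP transcription factors, which are released from their membrane anchors when sterols are low, are known to control both arms. In the lung the alveolar type 2 (AT2) cell draws on the fatty acid arm for the phospholipids of surfactant.

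The libraries were made from the distal lung of adult mice that were more than 90 percent C57BL/6. Control α7G mice carry Chrna7-IRES-tauGFP, a reporter behind the gene of the α7 nicotinic receptor, and α7E260A:G mice carry the same reporter with the E260A point mutation, which limits calcium signaling from the receptor. Both carry the change in every cell. Mice of both genotypes breathed room air (control) or side-stream cigarette smoke (CS) on 5 days a week for 4 months, and each of the 4 groups had 1 male and 1 female library. Cells were taken after lavage and after removal of CD45+ cells, poly(A)+ RNA was sequenced with strand, and reads were counted over coding sequences. Whether a library came from 1 mouse or several was not stated, so that p-values measure the spread between these libraries.

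Totals ran from 8020726 to 10944100 counts. Levels are given as RPM, the counts of a gene per 1000000 counts of its library, and, where genes are compared with each other, as RPKM, which is RPM per 1000 bases of coding sequence. The tests across genes used the edgeR quasi-likelihood fit with p-values adjusted over 7189 genes. The libraries differed in how counts depended on coding length, with slopes from -0.24 log2 units per doubling of length in the male α7G CS library to 0.41 in the male α7E260A:G control library. That dependence touches this pathway, because Fasn has 7512 bases of coding sequence, Acaca 7191 and Acly 3318, against a median of 1203 in the cholesterol arm. Where it bears on a result, the fold change is also given after an offset that removes it. Epcam, an epithelial marker, was read at 131 to 212 RPM in α7G and 78.5 to 92.3 RPM in α7E260A:G, without overlap. Its difference was -0.96 ± 0.21 (log2, SE, edgeR adjusted p = 0.116). It was the only 1 of 5 epithelial markers without overlap. Krt8, Krt18 and Cdh1 had lower fitted values in α7E260A:G as well, by -0.71 ± 0.23, -0.79 ± 0.26 and -0.30 ± 0.32 (edgeR adjusted p = 0.253, 0.265 and 0.836). Krt19 differed by 0.01 ± 0.25. The 5 markers summed to 1213 to 1886 RPM in α7G and to 1002 to 1521 RPM in α7E260A:G. AT2 markers summed to 20364 to 31194 RPM in the 4 α7G libraries and to 4667 to 15155 RPM in the 4 α7E260A:G libraries, whereas 14 alveolar macrophage markers summed to 12534 to 19638 RPM and 27903 to 44410 RPM. Club cell markers summed to 47990.5 to 76723 RPM in α7G and 16880 to 49558 RPM in α7E260A:G. Fibroblast markers summed to 1162 to 1757 RPM in α7G and 744 to 2918 RPM in α7E260A:G, and endothelial markers to 457 to 534 RPM and 207 to 503 RPM. T and B cell markers summed to 731 to 1229 RPM in α7G and 456 to 681 RPM in α7E260A:G, without overlap. In bulk RNA, fewer cells of a type and less RNA per cell cannot be told apart. Chrna7 itself, which was not deleted in either genotype, had 0 counts in 7 libraries and 4 counts in the male α7E260A:G control library.

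Promoter sequence of 26 of the 31 genes was found in the RefSeq windows of 300 bases (250 before the transcription start and 50 after it, build GRCm38.p6). Fdps, Fdft1, Sqle, Scd1 and Scd2 were not matched. Each window was searched on both strands for CCAAT, the box bound by NF-Y, a factor known to act beside SREBP, and for TCACNCCAC, letters of a sterol response element. Matches were searched for separately and could overlap. A gene was counted when any of its windows held a match. CCAAT was present in 13 of 13 genes of the cholesterol arm, in 5 of 8 of the fatty acid arm and in 4 of 5 regulators, where 41.1% of all 27025 genes with a window had it. Some of these matches lay far inside the gene. Dhcr7 had the box only in a window whose start is 7047 bases inside, Elovl1 at 1219 bases and Srebf1 at 1605 and 13715 bases. TCACNCCAC was present in 1 of the 26, Hmgcs1, and in 1.44% of all genes. Windows of 4 genes are shown because they set Acly and Fasn, at the start and the end of the route from citrate to palmitate, beside a pair from the cholesterol arm, each 5′ to 3′ on the strand of the gene, with CCAAT or its reverse complement ATTGG in capitals. They lie at chr11:120824498-120824797 (minus strand, Fasn), chr11:100527951-100528250 (minus, Acly), chr8:64733529-64733828 (minus, Sc4mol, listed by RefSeq as Msmo1) and chrX:72918271-72918570 (plus, Nsdhl).
Fasn: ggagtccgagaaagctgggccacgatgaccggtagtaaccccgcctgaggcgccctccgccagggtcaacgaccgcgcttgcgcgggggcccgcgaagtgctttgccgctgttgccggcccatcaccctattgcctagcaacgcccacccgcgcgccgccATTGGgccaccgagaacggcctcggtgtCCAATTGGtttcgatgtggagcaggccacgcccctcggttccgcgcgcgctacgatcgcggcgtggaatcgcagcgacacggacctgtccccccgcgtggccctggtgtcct
Acly: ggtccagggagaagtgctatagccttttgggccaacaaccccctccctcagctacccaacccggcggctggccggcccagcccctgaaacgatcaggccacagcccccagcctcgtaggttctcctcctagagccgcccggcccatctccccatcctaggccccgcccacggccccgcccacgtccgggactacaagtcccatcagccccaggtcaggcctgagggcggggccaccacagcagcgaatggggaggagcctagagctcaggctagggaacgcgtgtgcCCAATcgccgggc
Sc4mol: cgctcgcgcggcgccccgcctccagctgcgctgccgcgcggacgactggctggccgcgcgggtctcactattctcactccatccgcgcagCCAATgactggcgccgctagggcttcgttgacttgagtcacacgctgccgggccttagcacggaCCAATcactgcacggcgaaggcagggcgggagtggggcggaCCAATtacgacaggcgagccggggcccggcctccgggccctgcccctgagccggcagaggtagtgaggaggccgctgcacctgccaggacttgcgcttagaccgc
Nsdhl: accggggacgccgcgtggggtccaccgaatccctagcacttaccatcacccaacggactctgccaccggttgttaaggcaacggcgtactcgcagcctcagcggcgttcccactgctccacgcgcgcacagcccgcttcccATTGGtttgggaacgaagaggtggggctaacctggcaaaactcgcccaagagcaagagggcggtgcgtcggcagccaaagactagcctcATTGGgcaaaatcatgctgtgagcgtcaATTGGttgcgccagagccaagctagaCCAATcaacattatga
Fasn held 3 boxes, of which the last 2 overlap, Acly held 1, Sc4mol held 3 and Nsdhl 4. The start used for Fasn lies 619 bases inside the RefSeq gene. The single window of Acaca begins from a start 65803 bases inside its gene and is not shown. It held no box and counts among the 8 as a gene without one, but the sequence at the gene start of Acaca was not searched. A match is a description of the letters and no proof of binding.

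The summed level of the fatty acid arm was highest in both α7G control libraries, at 2054 RPM in the male and 1723 RPM in the female. It was 1110 and 1216 RPM in the α7G CS libraries, 1358 and 872 RPM in the α7E260A:G control libraries, and 1032 and 997 RPM in the α7E260A:G CS libraries. The α7G control libraries therefore stood above all 6 others. The cholesterol arm summed to between 504 and 692 RPM over the 8 libraries, with 551 and 682 RPM in the α7G controls and 692 and 625 RPM after CS, and no group stood apart. The ratio of the fatty acid arm to the cholesterol arm was 3.73 and 2.53 in the α7G controls against 1.49 to 2.69 elsewhere, so that the male α7E260A:G control, at 2.69, lay within the range of the α7G controls. With the dependence on length removed, the ratios of the α7G controls were 3.25 and 2.44 and those of the other 6 libraries were 1.67 to 2.24, and the groups no longer overlapped. These sums are a description without a test.

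**Figure D1:**
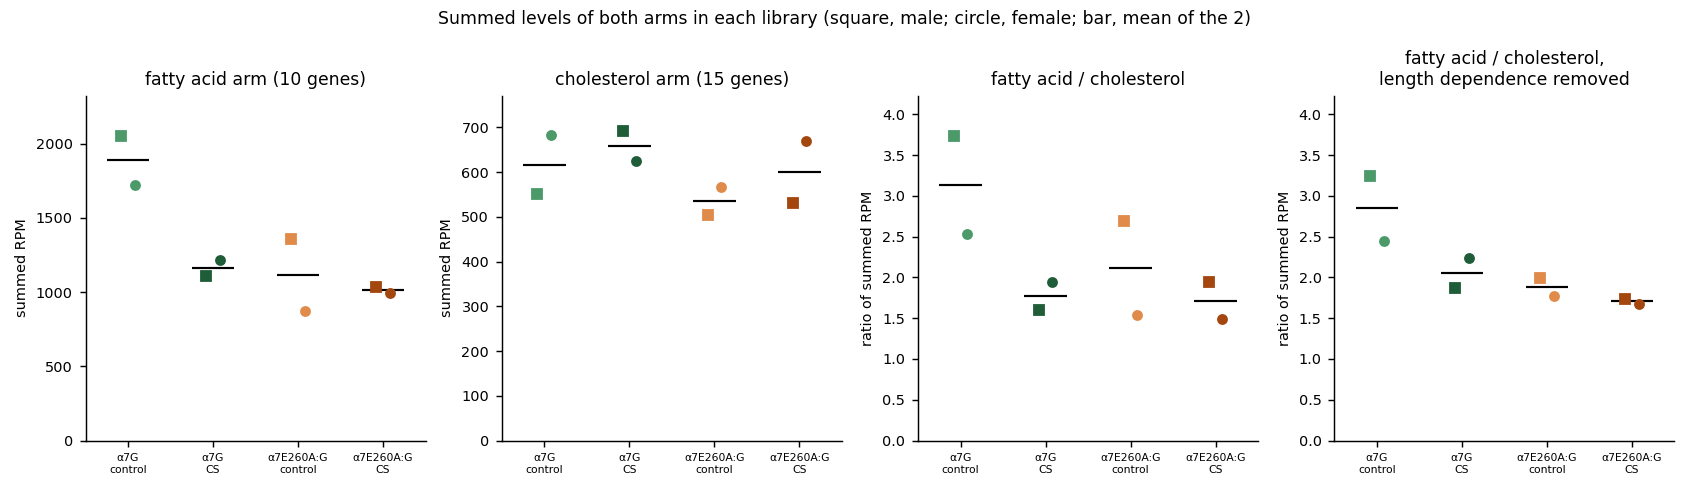
Summed RPM of the 10 fatty acid genes and the 15 measured cholesterol genes in each library, and the ratio of the sums without and with the dependence on coding length removed; squares are male and circles female libraries, and bars are means of 2. The fatty acid sum is at 2054 and 1723 RPM in the α7G controls and at 872 to 1358 RPM in the other libraries, while the cholesterol sum stays between 504 and 692 RPM.

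By gene, 4 of the 8 tested members of the fatty acid arm (Fasn, Scd1, Scd2 and Acsl4) were higher in both α7G control libraries than in any of the other 6, as was true of 6.61% of all genes. None of the 10 tested cholesterol genes and none of the 5 regulators was. The same 4 fatty acid genes met this under TMM scaling, which takes the bulk of genes as level, where 4.3% of all genes did, and with the dependence on length removed, where 4.87% did and Pmvk and Insig2 joined them. This way of counting was chosen after the values were seen. The comparison of CS with control in α7G and that of the genotypes both use the α7G control libraries, so the results that follow are not independent of each other.

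**Figure D2:**
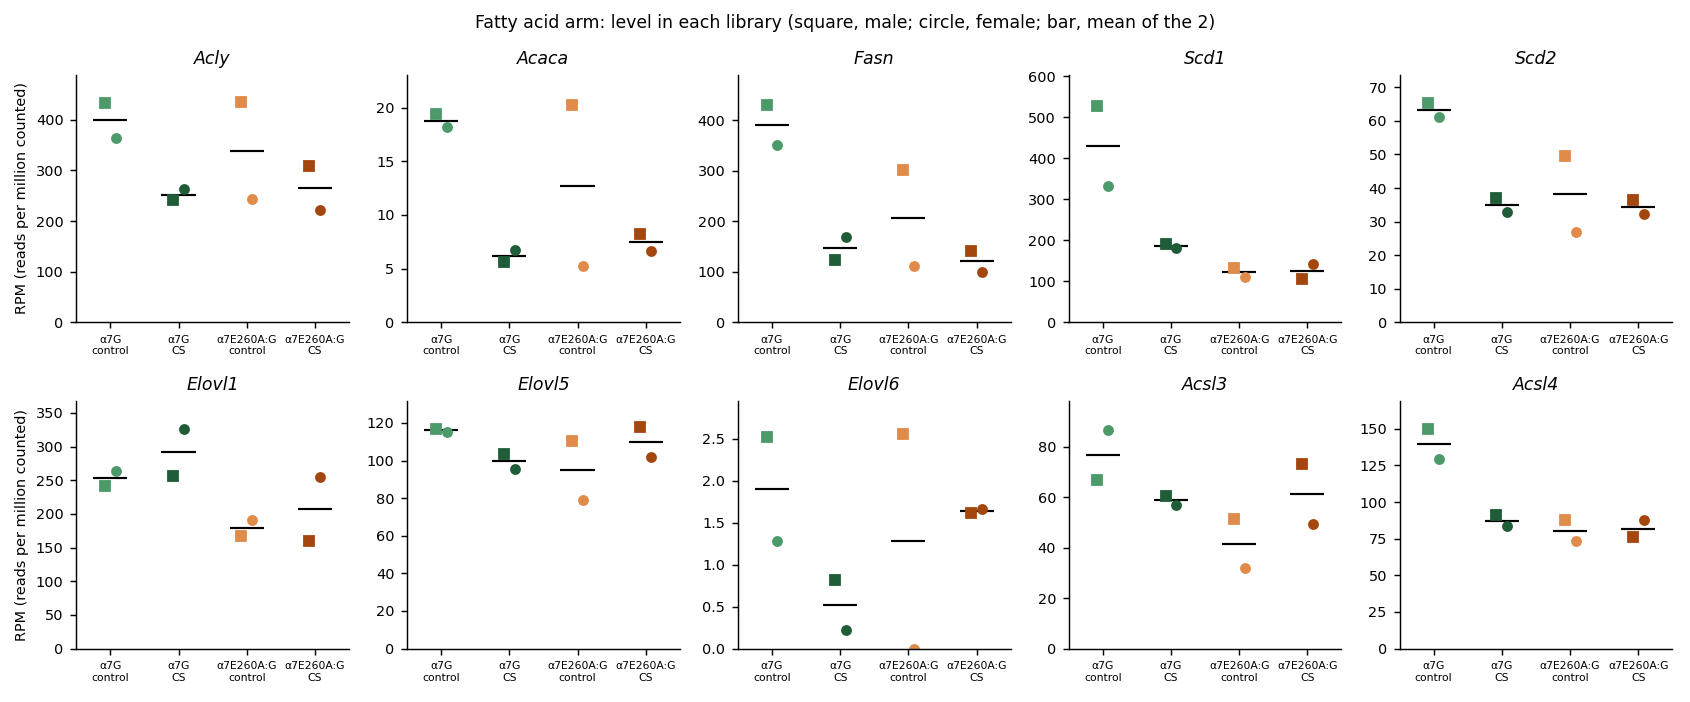
RPM of each of the 10 fatty acid genes in the 8 libraries (y axis from 0), with squares for male and circles for female libraries and bars for means of 2. Scd1, Fasn, Scd2 and Acsl4 have both α7G control libraries above the rest, whereas Elovl1 and Elovl5 do not.

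Of the 23 tested members, Scd1 had the largest genotype difference in edgeR. It encodes the desaturase that turns stearate into oleate, and it lies at chr19:44468941-44482199 on the minus strand (NCBIM37), where its coding exons span 1065 bases. Scd1 was read at 528 RPM in the male and 333 RPM in the female α7G control, 190 and 181 RPM in the α7G CS libraries, 132 and 111 RPM in the α7E260A:G controls, and 107 and 141 RPM in the α7E260A:G CS libraries. All 4 α7G libraries were above all 4 α7E260A:G libraries, and the α7G controls were far above the rest. Over both exposures Scd1 was lower in α7E260A:G by -1.13 ± 0.21 (log2, SE; n = 4 libraries a genotype; edgeR adjusted p = 0.105; exact two-sided permutation p = 0.0286, the smallest that 4 against 4 allows). The difference did not pass the threshold over all genes in edgeR, but it did with DESeq2 (adjusted p = 0.000138) and with the coding length offset in edgeR (-1.12, adjusted p = 0.00942). When single libraries were left out, the difference ran from -1.31 to -0.97 and the edgeR adjusted p from 0.0403, without the female α7E260A:G control library, to 0.537. Beside it, Scd1 in α7E260A:G stood at 0.25 of the α7G level in male and 0.334 in female controls, and at 0.56 and 0.777 after CS.

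With CS in α7G, Scd1 was 0.36 times the control level in the male and 0.545 times in the female library, a difference of -1.08 ± 0.30 (log2, SE; n = 2 libraries a group; edgeR adjusted p = 0.589), or -1.29 ± 0.25 with the length offset. In α7E260A:G the same ratios were 0.809 and 1.27, with a log2 difference of -0.03 ± 0.29. The difference between these CS effects, the interaction, was 1.05 ± 0.41 for Scd1, with an unadjusted edgeR p of 0.0387 and an adjusted p of 0.998; it was 1.17 ± 0.35 with the length offset and 0.70 without the female α7E260A:G CS library. The sum of AT2 markers was 22812 and 26310 RPM in the α7G controls and 20364 and 31194 RPM after CS, but its members differed. Sftpc, the most abundant, went from 12453 to 12914 RPM in males and from 15288 to 20145 RPM in females of α7G, whereas Slc34a2, the phosphate carrier of AT2 cells, went from 1168 to 378 RPM and from 962 to 681 RPM, Lamp3 from 307 to 125 RPM and from 327 to 237 RPM, and Etv5 from 32.6 to 10.2 RPM and from 21.1 to 19.7 RPM. The median log2 difference with CS in α7G over the 8 tested AT2 markers was -0.0017, and -0.27 with the length offset. Between genotypes the AT2 sum was lower in α7E260A:G in the same direction as Scd1, with 6 of its 9 markers not overlapping. The part of AT2 RNA content in the differences of Scd1 with CS and between genotypes was not tested.

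Fasn, fatty acid synthase, which builds palmitate from malonyl-CoA, lies at chr11:120667254-120685492 on the minus strand (NCBIM37). Its level was 430 and 351 RPM in the male and female α7G controls, 124 and 169 RPM after CS in α7G, 302 and 111 RPM in the α7E260A:G controls and 142 and 99.7 RPM after CS in α7E260A:G. It was lower after CS in 4 of 4 pairs of the same sex and genotype, as were Acly and Scap among the 23 (12.1% of all genes were), and the 2 α7E260A:G control libraries lay far apart. In α7G the difference with CS was -1.29 ± 0.37 (log2, SE; edgeR adjusted p = 0.589). The coding length offset cut it to -0.42 ± 0.23. In α7E260A:G it was -0.79 ± 0.37, and -0.31 ± 0.23 with the offset; without the male α7E260A:G control library it was -0.13 and without the female one -1.23. Between genotypes the offset acted the other way, from -0.58 ± 0.26 (edgeR adjusted p = 0.456) to -0.96 ± 0.16 (adjusted p = 0.0133), and after removal of the length dependence all 4 α7G libraries (197 to 318 RPM) were above all 4 α7E260A:G libraries (97.5 to 165 RPM).

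Acly, ATP citrate lyase, which releases the acetyl-CoA that feeds both arms, is also on chromosome 11 (100337667 to 100389314, NCBIM37). It was read at 434 and 364 RPM in the α7G controls, 241 and 263 RPM after CS, 434 and 244 RPM in the α7E260A:G controls and 310 and 222 RPM after CS. Acly was lower with CS in 4 of 4 pairs, with ratios of 0.555 and 0.723 in α7G and of 0.713 and 0.914 in α7E260A:G. Over both genotypes this came to -0.47 ± 0.17 (log2, SE; edgeR adjusted p = 0.63), and -0.19 ± 0.12 with the length offset. In α7G it was -0.54 ± 0.24, and the length offset left -0.12 ± 0.17. Acaca, the carboxylase that makes malonyl-CoA, was too low to be tested, at 19.4 and 18.1 RPM in the α7G controls, 5.59 and 6.77 RPM after CS, 20.2 and 5.21 RPM in the α7E260A:G controls and 8.23 and 6.64 RPM after CS. Both α7G control libraries and the male α7E260A:G control stood above the other 5 libraries for Acaca, as they did for Fasn. The length slopes of these 3 libraries were 0.23, 0.06 and 0.41, and that of the female α7E260A:G control was -0.24. The male α7E260A:G CS library, with Acaca at 8.23 RPM and Fasn at 142 RPM, had a slope of 0.19. The part of the slopes in these levels was not tested. With the dependence on length removed, the Acaca levels of the α7G controls were 13.1 and 16.5 RPM, and the male α7E260A:G control, at 9.2 RPM, lay within the 5.69 to 10.2 RPM of the other 6 libraries.

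Scd2, a second desaturase with a coding sequence as short as that of Scd1, was at 65.2 and 61.1 RPM in the α7G controls, 37.1 and 32.9 RPM after CS, 49.5 and 26.8 RPM in the α7E260A:G controls and 36.5 and 32.2 RPM after CS. With CS in α7G it was lower by -0.73 ± 0.24 (log2, SE; edgeR adjusted p = 0.589), and by -0.92 ± 0.28 with the length offset. Acsl4, the acyl-CoA synthetase that prefers arachidonate, was at 150 and 129 RPM in the α7G controls and at 73.2 to 91.1 RPM in the other 6 libraries. For Acsl4 the difference with CS in α7G was -0.55 ± 0.22 (-0.38 ± 0.23 with the length offset) and that between genotypes -0.38 ± 0.16 (edgeR adjusted p = 0.399). Its relative Acsl3, which was at 66.9 and 86.6 RPM in the α7G controls and 60.5 and 57 RPM after CS, was read higher after CS in α7E260A:G, with 51.4 and 31.8 RPM in the controls and 73.1 and 49.6 RPM after CS. The interaction for Acsl3 was 0.76 ± 0.36 (edgeR adjusted p = 0.998), and 0.62 ± 0.29 with the length offset.

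Among the elongases, Elovl1, which extends very long chains, was read higher after CS in both sexes of α7G (242 and 264 RPM in controls, 257 and 326 RPM after CS) and was at 168 and 190 RPM in the α7E260A:G controls and 160 and 254 RPM after CS. With length dependence removed the ratio after CS in α7G was 0.869 in males and 1.14 in females, and the fitted difference went from 0.33 ± 0.35 to 0.005 ± 0.21 (log2, SE) with the offset. The difference of Elovl1 between genotypes was -0.41 ± 0.25 (log2, SE; edgeR adjusted p = 0.612; exact permutation p = 0.0571). Elovl5, which extends polyunsaturated chains, lay between 79 and 118 RPM in all 8 libraries. Elovl6, which takes palmitate to stearate, had at most 2.56 RPM and 0 counts in the female α7E260A:G control, which allows up to 0.274 RPM by counting error.

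No member of either arm passed the test between genotypes over all genes (0 of 23 in edgeR, where 0.0835% of all genes did). At an unadjusted p under 0.05 there were 2 of 23 members, Scd1 and Acsl4, where 11.9% of all genes were. DESeq2 called 1 of 23, Scd1, and 5.88% of all genes. The length offset in edgeR called 2 of 23, Fasn and Scd1, and 6.64% of all genes. All 8 tested fatty acid genes had lower fitted values in α7E260A:G, from -1.13 for Scd1 to -0.03 for Elovl5, with a median of -0.38 against 0.04 for all genes; with the length offset 7 of 8 were lower and Elovl5 was at 0.02. For the 10 cholesterol genes the median was -0.04, with 7 lower and 3 higher. Groups of 4 libraries that did not overlap between genotypes were found for 2 of 23 members, Sqle and Scd1, both lower in α7E260A:G, which is close to the 8.14% of all genes that did not overlap (5.15% lower). Under TMM scaling it was 1 of 23 (Scd1, where 3.67% of all genes were lower without overlap) and with length dependence removed 3 of 23 (Pmvk, Fasn and Scd1, where 5.81% were).

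For CS in α7G the count was 0 of 23 in edgeR (0% of all genes). At an unadjusted p under 0.05 it was 4 of 23, namely Fasn, Scd1, Scd2 and Acsl4, all lower, where 6.72% of all genes were and 4.88% were lower. DESeq2 called 0 of 23, where it called 0.348% of all genes. The 8 fatty acid genes had a median of -0.54 and the 10 cholesterol genes a median of 0.32, against -0.02 for all genes. With the length offset these medians were -0.38, 0.08 and -0.002, with 7 of 8 fatty acid genes lower and 6 of 10 cholesterol genes higher. Scaling by library size alone moved the median of all genes for this comparison to -0.14, and that for the interaction to 0.22. Under that scaling the medians with CS in α7G were -0.67 for the fatty acid arm and 0.21 for the cholesterol arm. In RPM, Mvd, Fdps, Dhcr7 and Sc4mol of the cholesterol arm were higher with CS in both sexes of α7G, and Cyp51 was lower. Pmvk, Fdft1, Sqle, Ebp and Nsdhl were higher with CS in males and lower in females. In both sexes 7 of the 8 tested fatty acid genes were lower with CS in α7G, where 47.6% of all genes were, and Elovl1 was the exception. Acsl3 was no longer lower in both sexes under TMM scaling or with length dependence removed.

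For CS in α7E260A:G the count was also 0 of 23 (0% of all genes), and no member had an unadjusted edgeR p under 0.05, where 1.67% of all genes did. The median was -0.04 for the fatty acid arm and -0.0009 for the cholesterol arm, against -0.04 for all genes. Over both genotypes together, CS gave 0 of 23 calls (0% of all genes) and 4 at an unadjusted p under 0.05, Acly, Fasn, Scd1 and Scd2, where 7.59% of all genes were. No member had CS and control libraries that did not overlap in RPM, where 2.07% of all genes had. Under TMM scaling Acly was the 1 member whose CS libraries all lay lower, where 1.5% of all genes did. The interaction of CS with genotype was called for 0 of 23 (0% of all genes). DESeq2 called 0 of 23 in these 3 comparisons as well (0.153%, 0.542% and 0.0417% of all genes). For the interaction in edgeR, Scd1 alone of the 23 had an unadjusted p under 0.05, where 1.45% of all genes had, and no member of the cholesterol arm did.

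**Figure D3:**
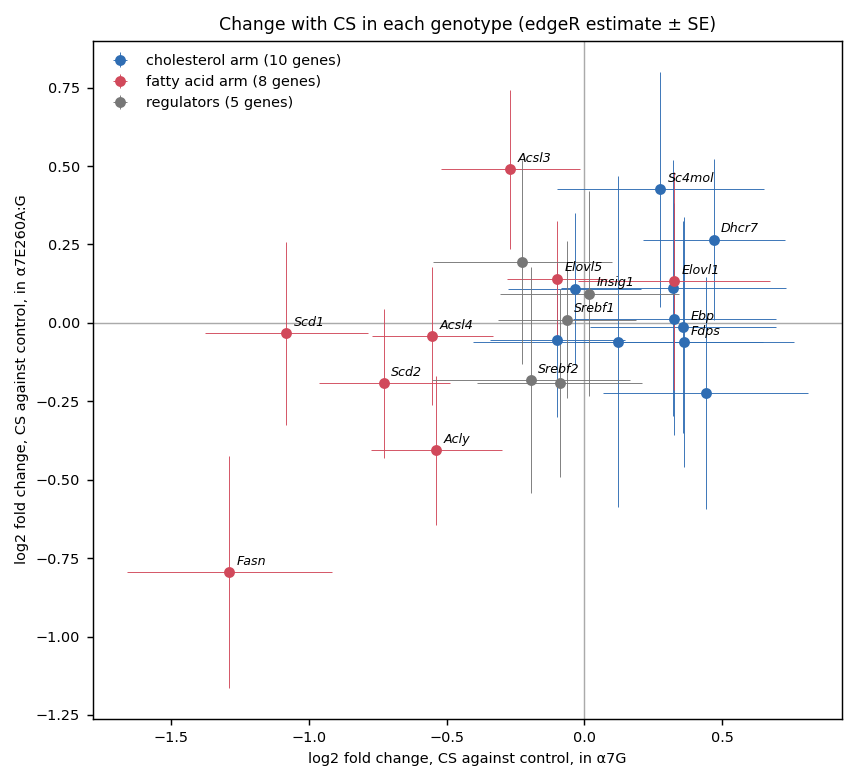
Log2 fold change with CS in α7G (x axis) and in α7E260A:G (y axis) for the 23 tested genes, with SE bars from edgeR; red is the fatty acid arm, blue the cholesterol arm and grey the regulators. Scd1 lies at -1.08 and -0.03, Fasn at -1.29 and -0.79, and the cholesterol genes lie mostly to the right of 0 for α7G.

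**Figure D4:**
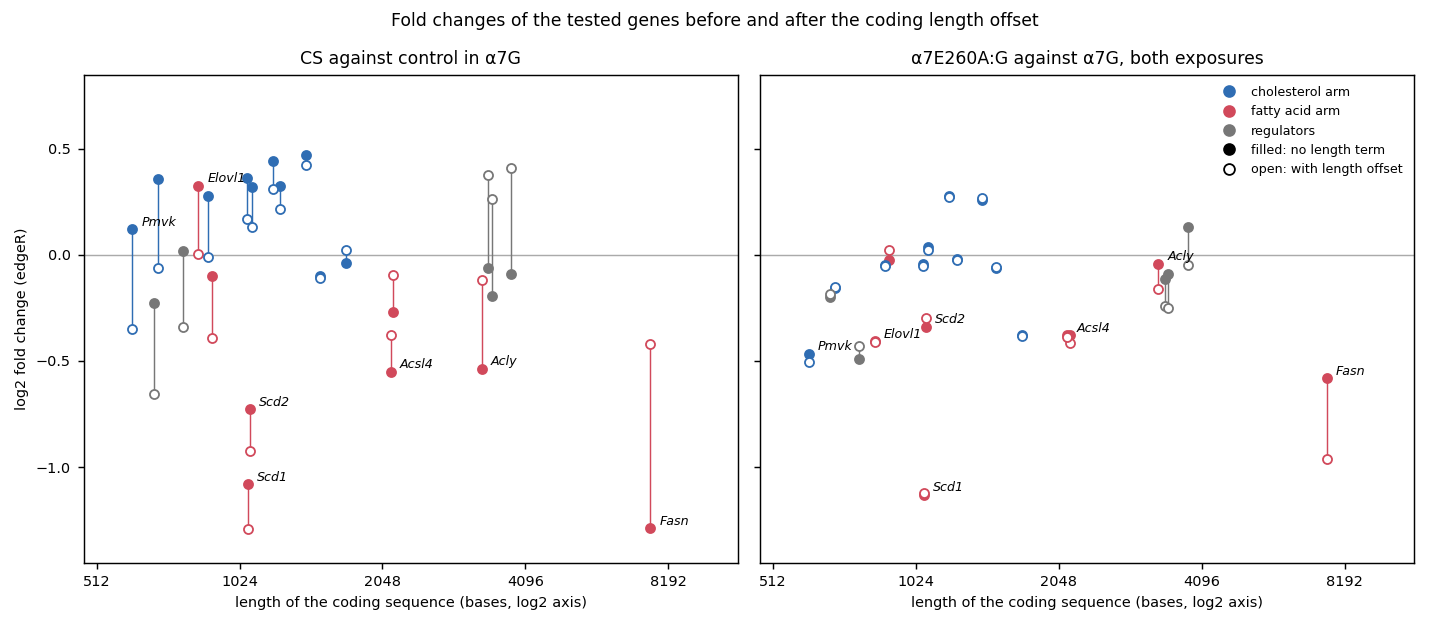
Log2 fold change against coding length (log2 axis) for the 23 tested genes, without (filled) and with (open) the coding length offset; left, CS against control in α7G, and right, α7E260A:G against α7G. Fasn moves from -1.29 to -0.42 on the left and from -0.58 to -0.96 on the right, while Scd1 moves from -1.13 to -1.12 on the right.

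No gene of the cholesterol arm passed the test over all genes in edgeR in any of the 5 comparisons. The mevalonate steps were represented by Mvk and Pmvk, the kinases of mevalonate and phosphomevalonate, by Mvd, the decarboxylase, by Idi1, the isomerase, and by Fdps, which makes farnesyl diphosphate. Pmvk, with 608 bases of coding sequence, ranged from 27.4 to 75.4 RPM, with both male α7E260A:G libraries lowest at 29.1 and 27.4 RPM. Fdps lay between 33.3 and 52.3 RPM and Mvd between 34 and 54.6 RPM. Mvk stayed between 14.5 and 21.1 RPM and Idi1 between 0.249 and 1.77 RPM. Pmvk was the only one of these whose genotypes did not overlap once length dependence was removed (51.1 to 77.4 RPM in α7G and 30 to 48.3 RPM in α7E260A:G), with an edgeR difference of -0.51 ± 0.19 under the offset (adjusted p = 0.18).

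Of the steps from farnesyl diphosphate to cholesterol, Sqle, the rate-limiting squalene epoxidase, separated the genotypes in RPM. It was at 58.1 and 79.7 RPM in the α7G controls, 61.6 and 62.5 RPM after CS, 52.5 and 38.8 RPM in the α7E260A:G controls and 51.4 and 51.5 RPM after CS. The gap between the nearest libraries was small, from 52.5 to 58.1 RPM, and the difference was -0.38 ± 0.17 (log2, SE; edgeR adjusted p = 0.463; exact permutation p = 0.0286). Under TMM scaling and with length dependence removed the genotypes overlapped for Sqle. Fdft1, squalene synthase, ranged from 28.9 to 49.1 RPM and Cyp51, the lanosterol demethylase, from 44.6 to 61.7 RPM, both with genotypes overlapping.

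Dhcr7, which carries out the last reduction to cholesterol, and Sc4mol, the sterol C4-methyl oxidase, were the members that were higher with CS in 4 of 4 pairs, 2 of 23 where 13.1% of all genes were. Dhcr7 went from 45.9 to 56 RPM in males and from 31.5 to 42.2 RPM in females of α7G, and from 53.5 to 57.1 RPM and 36.3 to 55.2 RPM in α7E260A:G. Over both genotypes Dhcr7 differed by 0.37 ± 0.18 (log2, SE; edgeR adjusted p = 0.638). Sc4mol went from 53.5 to 64.6 RPM and from 74.9 to 78.9 RPM in α7G, and from 45.8 to 59.6 RPM and 57.4 to 88.2 RPM in α7E260A:G, with a difference of 0.35 ± 0.27 (edgeR adjusted p = 0.717). With the length dependence removed Dhcr7 was still higher in 4 of 4 pairs, but Sc4mol was not, with a ratio of 0.979 in α7G females. Ebp, the sterol isomerase, and Nsdhl, the sterol dehydrogenase that acts after Sc4mol, ranged from 90.2 to 145 RPM and from 23.5 to 47.1 RPM. Lss, lanosterol synthase, ranged from 8.68 RPM in the female α7E260A:G control to 27.3 RPM in the female α7G control, and was not tested. Both α7G controls of Lss, at 26.5 and 27.3 RPM, were above the other libraries, which reached at most 23.8 RPM. With length dependence removed they were at 21.9 and 25.8 RPM, against at most 20.3 RPM in the other libraries. Tm7sf2 and Hsd17b7, reductases of the same route, reached at most 15.6 and 6.7 RPM.

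**Figure D5:**
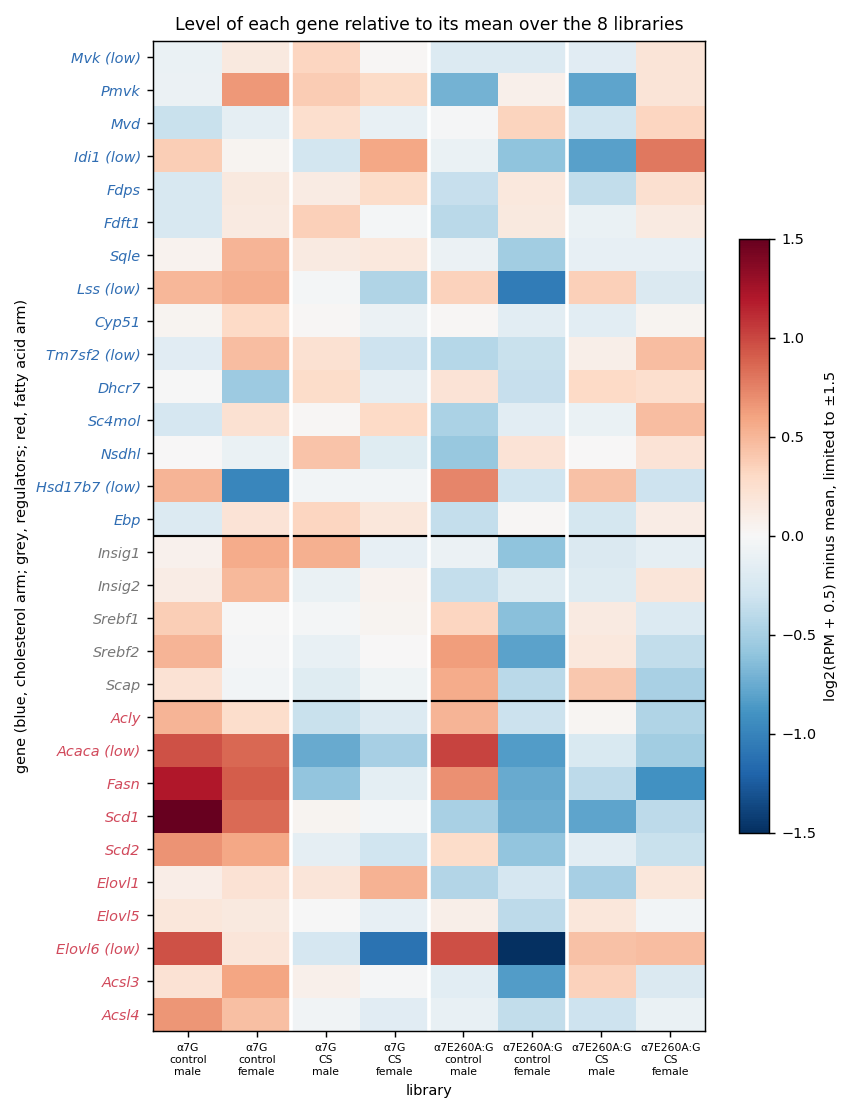
Level of each of the 30 measured genes in the 8 libraries as log2(RPM + 0.5) minus the mean of the gene, with colour limited to 1.5 either way; genes are ordered by route and (low) marks those not tested. Red cells gather in the α7G control columns for Fasn, Scd1, Scd2, Acaca and Acsl4 in the fatty acid block. For Fasn and Acaca the male α7E260A:G control is red as well. In the cholesterol block Lss, which was not tested, also has both α7G control libraries highest.

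The 5 regulators had a median log2 difference of -0.09 with CS in α7G and of -0.12 between genotypes. With the length offset these medians were 0.26 and -0.24, against -0.002 and -0.01 for all genes, and all 5 regulators were lower in α7E260A:G. Srebf1 and Srebf2, which encode SREBP-1 and SREBP-2, were at 199 and 153 RPM and at 251 and 175 RPM in the α7G controls. After CS in α7G they were at 150 and 158 RPM and at 164 and 177 RPM. The male α7E260A:G control had 192 and 272 RPM and the female 99.1 and 101 RPM of Srebf1 and Srebf2, so that the libraries of this group were far apart. The differences with CS in α7G were -0.06 ± 0.25 for Srebf1 and -0.19 ± 0.36 for Srebf2 (edgeR adjusted p = 0.919 and 0.809), and with the length offset they were 0.38 ± 0.17 and 0.26 ± 0.17, with the sign turned. Scap, the escort that carries SREBP to the Golgi, was lower with CS in 4 of 4 pairs, from 68.3 to 141 RPM in all, but with the length offset it was higher in α7G by 0.41 ± 0.16 (adjusted p = 0.61). These 3 genes have coding sequences of 3421 to 3828 bases. Insig1 and Insig2, the anchors that hold SREBP back, have short ones, and Insig2 was lower in both sexes with CS in α7G (28.3 to 24.3 RPM and 36.9 to 27.1 RPM), by -0.23 ± 0.32 without and -0.65 ± 0.22 with the offset (edgeR adjusted p = 0.6). Insig1 was at 23.1 and 32.9 RPM in the α7G controls and between 14.4 and 20.8 RPM in α7E260A:G, lower by -0.49 ± 0.23 (edgeR adjusted p = 0.484), and its genotypes overlapped by 1 α7G library at 20.2 RPM.

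Compared with each other per length, the members differed over a wide range. Elovl1 had the highest median at 296 RPKM, followed by Ebp at 175 RPKM, Scd1 at 151 RPKM and Elovl5 at 119 RPKM. Pmvk and Acly were close to each other at 86.6 and 86.3 RPKM. Fasn, whose RPM was similar to that of Scd1, had a median of 20.7 RPKM. Acaca, Idi1, Elovl6 and Hsd17b7 lay lowest, at 1.04, 0.933, 1.81 and 3.14 RPKM.

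Other genes of lipid metabolism, from lists without the members, gave no call in edgeR without the length offset. None of the 14 tested genes of other sterol handling, of 12 of other fatty acid metabolism and of 10 of surfactant phospholipid synthesis passed between genotypes (the share over all genes was 0.0835%). The 4 with the smallest p were Lpcat1, Soat1, Fabp5 and Abcg1. Lpcat1, which remakes the dipalmitoyl lecithin of surfactant, was at 92.3 to 199 RPM in α7G and 53.5 to 81.5 RPM in α7E260A:G, a difference of -1.07 ± 0.18 (edgeR adjusted p = 0.105). Soat1, which esterifies cholesterol, and Abcg1, which exports it, were higher in α7E260A:G by 0.76 ± 0.15 and 0.94 ± 0.19 (edgeR adjusted p = 0.106 and 0.11). Fabp5, a fatty acid carrier, was higher by 2.38 ± 0.46 (edgeR adjusted p = 0.106). With the length offset edgeR called 3 of the 14 sterol genes (Abcg1, Soat1 and Npc1), all higher, 3 of the 12 fatty acid genes, 1 higher (Fabp5) and 2 lower (Fads3, a desaturase, and Dgat2, which makes triglyceride), and 1 of the 10 surfactant genes (Lpcat1), lower, where it called 6.64% of all genes. DESeq2 called the same numbers in the same directions, where it called 5.88% of all genes. Npc1, Fads3 and Dgat2 are named after their values were seen. In the same libraries alveolar macrophage markers were higher in α7E260A:G, 8 of 14 without overlap, and AT2 markers lower. The adipocyte markers Adipoq, Lep and Cfd were at 0 or below 1 RPM in all libraries, and Cidec was read at 88.9 to 156 RPM. The part of macrophage and AT2 RNA in the differences of these genes was not tested.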

How the data were processed

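The authors aligned stranded poly(A)+ reads with STAR to mm9 (NCBIM37) and deposited, for each of 8 libraries, raw counts of reads over coding sequence per gene of GENCODE M1, made with HTSeq; both tools are named without versions in the labels. All 22756 genes matched GENCODE M1, which gave positions and coding lengths. The members and all other lists were chosen with earlier results of these data known. Genes with a mean of at least 200 counts, other than 189 immunoglobulin, H2, ribosomal protein and predicted (Gm) genes left out by name as the study did, were tested (7189) with the quasi-likelihood test of edgeR 4.0.16 (R 4.3.3, TMM, 1 term for each of 4 groups, all 8 libraries, Benjamini-Hochberg adjustment, threshold 0.05); fold changes are its log2 values with SE. The contrasts were genotype over both exposures, CS over both genotypes, CS within each genotype, and their interaction. The spread came from the 2 libraries in each group. Single values of 30 genes were compared by an exact permutation test over 70 arrangements of 4 against 4 libraries.

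Alternatives were a replicate block of sex, an offset from a lowess of each library's log2 deviation on coding length (span 0.667), both together, DESeq2 1.42.0, library size scaling, filterByExpr, a minimum of 1 count, and leaving out each library. The main fit, the replicate block, the length offset and DESeq2 were tested on simulated data, for the genotype contrast only. The other alternatives and contrasts were not simulated. Every member, at most 4 genes of the other lists (smallest p between genotypes), marker lists and Chrna7 are named. Promoters came from RefSeq (GRCm38.p6). No member shared coding bases with another gene on its strand. The upper limit in RPM given for a gene without counts covers counting error only. The SE of a fold change also includes the spread between libraries.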

Additional observations from a re-analysis of the deposited data

Results flagged for a closer look

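In 4 libraries of a genotype or of an exposure, 128 groups of values (30 genes and both arm sums) were searched for a library far from its neighbours by Dixon's gap test, and 8 stood out, where chance gives about 1 in 20 groups. The female α7E260A:G control library was the lowest in 3 of them. Acaca was at 5.21 RPM there against 18.1 to 20.2 RPM in the other controls, Elovl5 at 79 RPM against 111 to 117 RPM, and Sqle at 38.8 RPM against 51.4 to 52.5 RPM in the other α7E260A:G libraries. The male α7G control library was the highest for both SREBP genes, with Srebf1 at 199 RPM against 150 to 158 RPM and Srebf2 at 251 RPM against 164 to 177 RPM in the other α7G libraries. The other 3 were Mvk, at 19.2 RPM in the female α7E260A:G CS library against 14.5 to 14.8 RPM in that genotype, Dhcr7, at 42.2 RPM in the female α7G CS library against 55.2 to 57.1 RPM in the other CS libraries, and Insig1, at 32.2 RPM in the male α7G CS library against 19 to 20.2 RPM in the other CS libraries. Their causes were not tested.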

How the results depend on the processing

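Members called between genotypes in edgeR rose from 0 of 23 to 2 (Fasn and Scd1) with the coding length offset and to 2 with the replicate block of sex together with the offset, and were 1 (Scd1) with DESeq2 and 0 to 1 when each library was left out; the 1 was Scd1 without the female α7E260A:G control library. The replicate block alone called 0 of 23 in each of the 5 comparisons. Over the 6 pairs of groups, the differences between the male and the female library correlated from -0.13 to 0.84. Among the α7G control and both α7E260A:G groups they correlated from 0.53 to 0.84, and with the α7G CS group from -0.13 to 0.13. Sex was not taken as a pairing in the main fit, so that differences between the sexes count as spread within groups. In the other 4 comparisons every alternative gave 0 members called. Over all genes the genotype calls went from 6 to 477 with the offset, 674 with the offset and the replicate block, 40 with the block alone, 423 with DESeq2, 13 with filterByExpr (of 14140 genes), 69 with a minimum of 1 count (of 17542 genes), and 121 and 275 without the male and the female α7E260A:G control library and 1 to 4 without any other; those for CS in α7G went from 0 to 25 with DESeq2, for CS over both genotypes from 0 to 39, for CS in α7E260A:G from 0 to 11 and for the interaction from 0 to 3. Members whose genotypes did not overlap went from 2 to 1 under TMM scaling, and members whose exposures did not overlap from 0 to 1 (Acly, lower with CS). The fatty acid arm sum in α7E260A:G against α7G after CS went from -0.20 to -0.35 (log2) with length dependence removed. The cholesterol arm sum with CS in α7E260A:G went from 0.16 to 0.032 with it removed, and the median of its members was -0.0009. Scd1 with CS in α7E260A:G, at -0.03, turned to 0.027 with library size scaling, and ran from -0.38 to 0.25 when single libraries were left out, above 0 without the male CS library and without the female control library of that genotype. Of 300 values of 20 named effects under alternatives, 291 kept their direction and side of the threshold, 6 passed the threshold and these 3 turned. Fasn between genotypes ran from -0.93 to -0.36 when single libraries were left out, the first without the male and the second without the female α7E260A:G control library; Fasn with CS over both genotypes was -0.70 without the male α7E260A:G control library. The median over members was not computed for genotypes within 1 exposure, for which no contrast was fitted. With 8020726 to 10944100 counts per library, the 7 genes below the minimum mean could not be tested. The causes of these changes were not tested.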
